A study of Mus musculus with 4 samples.

Results

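The 6 tetraspanin genes, Cd81, Cd63, Cd9, Cd53, Cd37 and Cd82, were followed through the monocytes and macrophages of the mouse colon, as 6 of the 11820 genes of a single-cell RNA-sequencing count table. The genes were chosen by name, because the level of Cd81 on a high-fat diet was already known to be low in these mice, and the question was whether its relatives share that pattern. Cells were sorted from the colonic lamina propria of male C57/Bl6N mice that were 6 to 7 weeks old, 2 of them on chow (replicates 9 and 11) and 2 on a coconut-based high-fat diet (HFD, given as 60% in the labels) for 1 week (replicates 1 and 3). All cells had passed the same flow cytometry gate (live CD45+ Lin- CD11b+ CD24- cells positive for Ly6C or CD64). Each mouse filled its own well and library, so that mouse and library cannot be told apart. Because Cd81's own difference between diets selected the set, it is described here with its size and error and without a test, whereas the other 5 members were tested together with all other genes.

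Tetraspanins are small proteins that span the cell membrane several times and carry a large extracellular loop, through which they bind integrins, immunoglobulin-family proteins and each other and so arrange receptors into patches of membrane. Cd81 and Cd9 mainly sit at the cell surface and share partners, and Cd81 is best known from the co-receptor of B cells. Cd63 is carried by late endosomes, lysosomes and the vesicles that bud inside them. Cd53 and Cd37 are largely restricted to leukocytes, and Cd37 is known as a partner of the fungal sugar receptor Clec7a. Cd82 is a broadly expressed member that also traffics through endosomes. In the colon, Ly6C+ monocytes enter the lamina propria, gain MHC class II and then lose Ly6C as they become macrophages that produce complement C1q.

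The stretch of sequence that makes these genes a family is shown first, since a Cys-Cys-Gly motif in the large extracellular loop is the signature of tetraspanins. The lines give the coding strand of the GENCODE M21 transcripts (genome build GRCm38), 5′ to 3′, with the 3 codons of the motif in capitals and 18 bases on each side.
Cd81, codons 156 to 158 of 236, exon 6 of 8, triplet at chr7:143066667-143066675 (plus strand): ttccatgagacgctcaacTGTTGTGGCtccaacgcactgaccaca
Cd63, codons 145 to 147 of 238, exon 6 of 8, triplet at chr10:128912167-128912175 (plus strand): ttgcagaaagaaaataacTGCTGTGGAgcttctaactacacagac
Cd9, codons 150 to 152 of 226, exon 6 of 8, triplet at chr6:125462189-125462197 (minus strand): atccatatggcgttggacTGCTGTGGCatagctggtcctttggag
Cd53, codons 144 to 146 of 219, exon 6 of 8, triplet at chr3:106763278-106763286 (minus strand): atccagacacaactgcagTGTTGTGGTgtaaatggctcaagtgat
Cd37, codons 152 to 154 of 281, exon 6 of 8, triplet at chr7:45235629-45235637 (minus strand): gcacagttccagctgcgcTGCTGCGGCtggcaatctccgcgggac
Cd82, codons 149 to 151 of 266, exon 8 of 10, triplet at chr2:93420741-93420749 (minus strand): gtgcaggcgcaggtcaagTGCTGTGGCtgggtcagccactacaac
The motif opens with the cysteine codon TGT in Cd81 and Cd53 and with TGC in the other members, and the glycine codon is GGC in Cd81, Cd9, Cd37 and Cd82, GGA in Cd63 and GGT in Cd53. Such an in-frame triplet, a pair of TGC or TGT codons followed by GGN, was found in 552 of 21714 mouse coding sequences (2.54%) and in 25 of 25 other listed tetraspanins with a coding sequence. Cd81, Cd63 and Cd9 each held a further triplet elsewhere, at codons 227 to 229, 72 to 74 and 76 to 78. In the same build Cd81 (ENSMUSG00000037706) lies at chr7:143052739-143067934, Cd63 (ENSMUSG00000025351) at chr10:128900989-128912822 and Cd9 (ENSMUSG00000030342) at chr6:125460266-125494791. Cd53 (ENSMUSG00000040747) lies at chr3:106759921-106790149, Cd37 (ENSMUSG00000030798) at chr7:45233632-45239115 and Cd82 (ENSMUSG00000027215) at chr2:93419111-93463140.

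To follow the members along maturation without using their own counts, cells were placed in stages by Ly6c2, by the summed UMIs of the MHC class II genes H2-Aa, H2-Ab1 and H2-Eb1, and by the summed UMIs of C1qa, C1qb and C1qc, where a UMI is 1 captured RNA molecule. The stages were Ly6c2+ MHC II-low monocytes (66 and 64 cells in chow replicates 9 and 11, 267 and 299 cells in HFD replicates 1 and 3), Ly6c2+ MHC II-high cells (3, 23, 105 and 358 cells in the same order), Ly6c2- MHC II-high C1q-low cells (27, 31, 101 and 180 cells) and C1q-high macrophages (764, 1849, 458 and 653 cells). Of 5420 cells 5248 were staged and 172 were not, since they had neither high C1q, high MHC II nor a Ly6c2 UMI. C1q-high macrophages made up 84.5% and 92.4% of the cells of the chow mice and 47.4% and 42.2% of the cells of the HFD mice. Libraries held 904 to 2002 cells and 3824228 to 7947893 UMIs, with a median of 3266 to 3926 UMIs per cell, and 23 cell barcodes occurred in more than 1 library. Levels are given as CPM, the UMIs of a gene per 1000000 UMIs, summed over the cells of a mouse and stage.

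The stages matched their names on Plac8 and Mertk, which the gates did not use, with limits in both directions. The summed marker lists given below also hold genes of the gates. These are Ly6c2 among the monocyte markers and C1qa, C1qb and C1qc among the macrophage markers. Plac8, a monocyte gene, had 5978 and 7960 CPM in the Ly6c2+ MHC II-low monocytes of the chow mice, 13180 and 11627 CPM in those of the HFD mice, and 55.4 and 126 CPM in the C1q-high macrophages of the chow mice. In the C1q-high macrophages of the HFD mice it stood at 1770 and 2310 CPM, and the summed level of 7 monocyte markers there was 2869 and 3780 CPM against 355 and 543 CPM on chow. The macrophage receptor gene Mertk was at or near 0 CPM in monocytes (4.78 and 0 on chow, 0.947 and 1.11 on HFD) and reached 29.2, 36.8, 19.4 and 15.7 CPM in C1q-high macrophages of chow 9, chow 11, HFD 1 and HFD 3. C1qa itself stood lower in the C1q-high macrophages of the HFD mice (5324 and 4803 CPM) than of the chow mice (6660 and 7407 CPM). At the Ly6c2- MHC II-high C1q-low stage the 7 monocyte markers summed to 2179 and 4032 CPM on chow against 6063 and 7718 CPM on HFD, with Ly6c2 at 0 by the gate. The 9 macrophage markers summed to 2533 and 3344 CPM on chow against 1514 and 1837 CPM on HFD there, with Mertk at 0 in chow replicate 11. The part of these shifts in the diet differences of the members at that stage was not tested. The C1q-high stage of the HFD mice therefore held cells with less C1q and more monocyte RNA, and the members are compared between diets again below at matched C1q.

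Cd81, Cd63 and Cd9 all rose from monocytes to C1q-high macrophages. Cd81 stood at 297 and 296 CPM in the Ly6c2+ MHC II-low monocytes of chow replicates 9 and 11 and at 3158 and 3617 CPM in their C1q-high macrophages, and in HFD replicates 1 and 3 it went from 48.3 and 52.0 to 1119 and 818 CPM. Over the 4 mice this was a difference of 4.03 ± 0.25 on the log2 scale (± SE, edgeR quasi-likelihood test with a term for each mouse, adjusted p = 9.8e-14), or 16.3-fold. Every macrophage level, on either diet, lay above every monocyte level.

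Cd63, the endosomal member, showed the steepest rise of the 6. It had 43.0 and 57.4 CPM in the monocytes of the chow mice and 26.5 and 37.6 CPM in those of the HFD mice, which rests on 9, 12, 28 and 34 UMIs. In C1q-high macrophages it reached 1339, 1179, 699 and 646 CPM in chow 9, chow 11, HFD 1 and HFD 3, a difference of 4.77 ± 0.34 on the log2 scale or 27.3-fold (adjusted p = 1.9e-12, edgeR). Cd9, the surface partner of Cd81, went from 81.3 and 129 CPM on chow against 66.3 and 55.3 CPM on HFD to 1018, 715, 622 and 517 CPM, a difference of 3.36 ± 0.27 or 10.3-fold (adjusted p = 2.7e-11, edgeR). The macrophage level of each mouse again lay above all monocyte levels for both genes.

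Cd82 rose less, and the leukocyte-restricted members fell. Cd82 had 47.8 and 52.6 CPM in the monocytes of the chow mice, 19.9 and 37.6 CPM in those of the HFD mice, and 107, 99.4, 64.6 and 54.9 CPM in C1q-high macrophages, a difference of 1.27 ± 0.29 on the log2 scale (2.41-fold, adjusted p = 9.4e-04, edgeR). Cd53 fell from 1291 and 1224 CPM on chow against 913 and 1102 CPM on HFD to 709, 638, 599 and 600 CPM, by 0.68 ± 0.16 on the log2 scale (1.60-fold, adjusted p = 0.00138). Cd37 fell from 105 and 95.6 CPM on chow against 75.8 and 43.1 CPM on HFD to 55.7, 55.1, 31.8 and 17.1 CPM, by 0.94 ± 0.25 on the log2 scale (1.92-fold, adjusted p = 0.00399). Within every mouse Cd82 was higher and Cd53 and Cd37 were lower in macrophages than in monocytes. All 6 members were called at a false discovery rate (FDR) of 1%, against 19.3% of the 4978 genes tested between these stages. Of the members 4 were higher and 2 lower in macrophages. Without either HFD mouse, or in the chow mice alone, the calls of Cd53 and Cd37 were lost (adjusted p = 0.0113 to 0.0385 and 0.069 to 0.288), and that of Cd82 was lost without HFD replicate 1 (adjusted p = 0.0262) and in the chow mice alone (0.0168), with the direction kept.

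**Figure D1:**
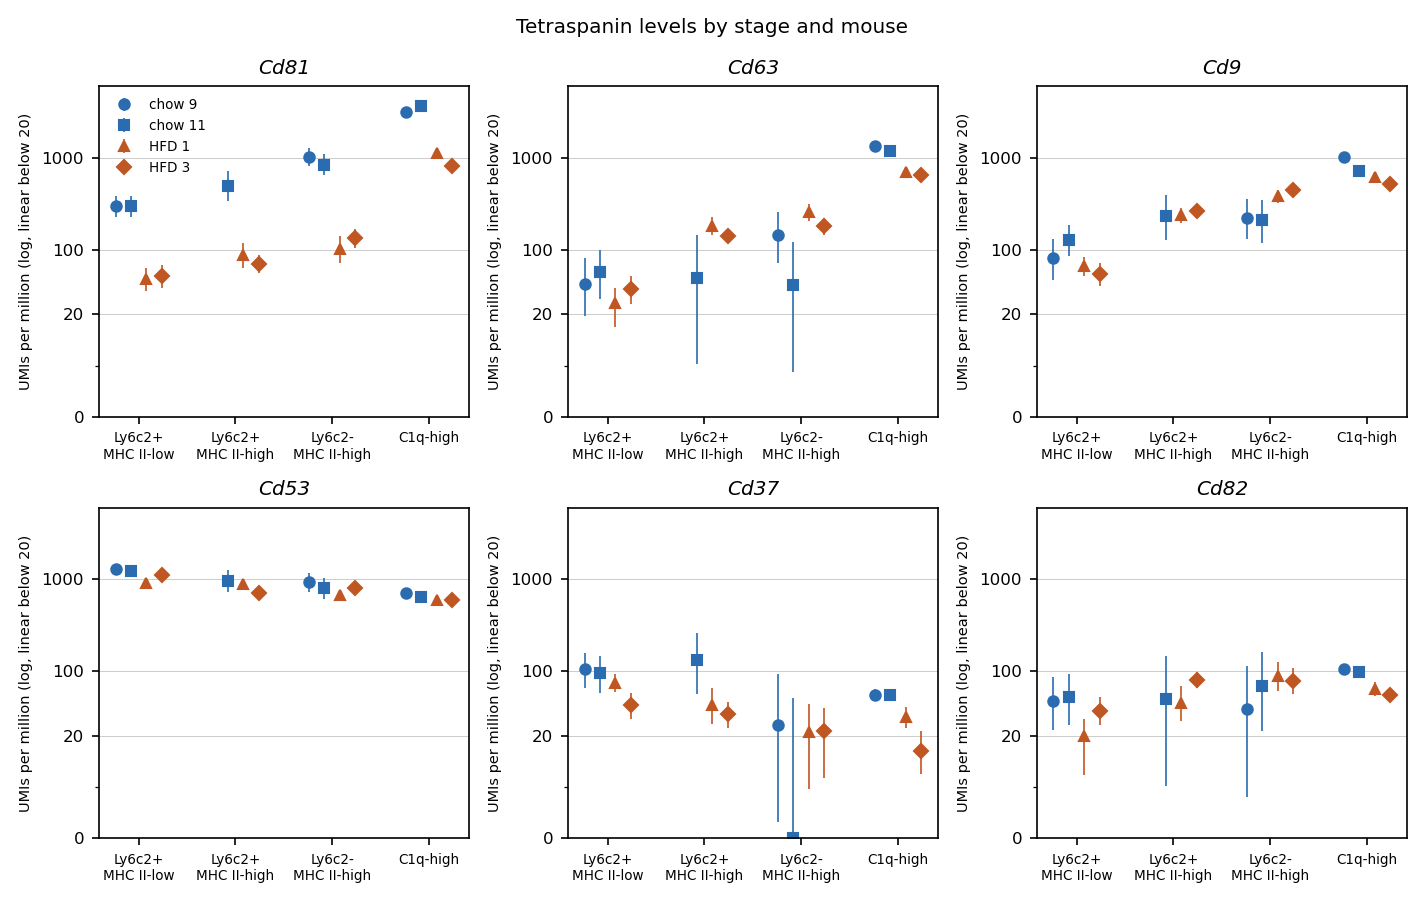
Level of each tetraspanin gene in CPM (y axis, linear below 20 CPM and logarithmic above) in the 4 stages (x axis), 1 symbol per mouse. Bars are the 95% Poisson counting interval of each sum. Only sums of at least 20 cells are drawn, so chow replicate 9 is absent from the Ly6c2+ MHC II-high cells. Cd81 rises to 3158 and 3617 CPM in the chow mice and to 1119 and 818 CPM in the HFD mice. Its HFD points lie below the chow points drawn at every stage, whereas the order of the diets changes between stages for Cd63 and Cd9.

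The members took their steps at different points, 1 sum here being of 3 cells (Ly6c2+ MHC II-high cells of chow replicate 9). Between Ly6c2+ MHC II-low monocytes and Ly6c2+ MHC II-high cells, Cd63 rose by 1.99 ± 0.39 on the log2 scale (adjusted p = 0.00109) and Cd9 by 1.73 ± 0.30 (adjusted p = 2.7e-04), while 3.15% of all genes tested were called. Both calls were made in the HFD mice alone and in neither case in the chow mice alone. Cd63 went from 26.5 and 37.6 to 183 and 141 CPM in the HFD mice, but from 57.4 to 49.8 CPM, on 3 UMIs, in chow replicate 11 and from 43.0 to 0 CPM in the 3 cells of chow replicate 9. Cd9 went from 66.3 and 55.3 to 239 and 268 CPM in the HFD mice and from 129 to 233 CPM in chow replicate 11. Fitted in the chow mice alone the step was -0.41 ± 0.97 for Cd63 (adjusted p = 0.932, edgeR) and 0.90 ± 0.54 for Cd9 (adjusted p = 0.688), and in the HFD mice alone 2.30 ± 0.22 and 2.05 ± 0.18 (adjusted p = 9.21e-08 and 2.85e-08). Without the sum of 3 cells it was 2.10 and 1.82 (adjusted p = 0.00117 and 0.000458). Whether this step differs between diets was not tested. Cd81 differed by 0.43 ± 0.28 there (95% interval -0.15 to 1.02, adjusted p = 0.498, edgeR) and was not called. It went from 296 to 498 CPM in chow replicate 11 and from 48.3 and 52.0 to 87.5 and 70.8 CPM in the HFD mice. The 3 cells of chow replicate 9 had 0 Cd81 UMIs and are part of this fit. Fitted within each diet or without that sum, its adjusted p ran from 0.0863 to 0.948. The loss of Ly6c2 among MHC II-high cells was accompanied by few calls in any gene (0.0402% of those tested). Cd81 differed by 1.00 ± 0.28 on the log2 scale at this step (adjusted p = 0.543, edgeR) and Cd37 by -1.24 ± 0.42 (adjusted p = 0.788). None of the 6 was called, and these 2 had an unadjusted p under 0.05. Cd81, Cd63 and Cd9 rose with C1q, by 2.60 ± 0.24 (adjusted p = 3.0e-09), 2.49 ± 0.30 (adjusted p = 8.2e-07) and 1.15 ± 0.25 (adjusted p = 0.0021), where 4.46% of all genes were called. Cd82 (0.07 ± 0.30), Cd53 (-0.15 ± 0.17) and Cd37 (0.64 ± 0.38) were not called. The call of Cd9 at this step was lost in the HFD mice alone (0.56 ± 0.14, adjusted p = 0.0126) and kept in the chow mice alone (2.29 ± 0.33, adjusted p = 8.45e-10).

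Diet was examined within each stage, beginning with Cd81. In Ly6c2+ MHC II-low monocytes Cd81 had 297 and 296 CPM on chow, from 62 UMIs in each mouse, and 48.3 and 52.0 CPM on HFD, from 51 and 47 UMIs. The chow mean of 296 ± 0.0702 CPM (SD, n = 2) was 5.91-fold the HFD mean of 50.1 ± 2.60 CPM, and the fitted difference was -2.67 ± 0.25 on the log2 scale (95% interval -3.20 to -2.14). In Ly6c2- MHC II-high C1q-low cells Cd81 had 1024 and 843 CPM on chow against 103 and 135 CPM on HFD, a fitted difference of -3.01 ± 0.27 (95% interval -3.57 to -2.46). In C1q-high macrophages the values were 3158 and 3617 CPM on chow against 1119 and 818 CPM on HFD, a fitted difference of -1.95 ± 0.18 (95% interval -2.37 to -1.53) or 3.86-fold. The diets did not overlap in any of these stages. The Cd81 level of the HFD macrophages was of the order that chow mice already showed in C1q-low MHC II-high cells. In the Ly6c2+ MHC II-high cells, which were not tested because chow replicate 9 held 3 of them, Cd81 had 498 CPM in chow replicate 11 and 87.5 and 70.8 CPM in the HFD mice, and none of the 12965 UMIs of chow replicate 9 were of Cd81.

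The low stages of the chow mice are small, and 2 of 4 listed plasma cell markers, Jchain and Igha, the ones in the table, moved with diet. These genes summed to 40590 and 27959 CPM in the monocytes of the chow mice and to 9131 and 7489 CPM in those of the HFD mice. Here 2, 1, 1 and 1 cells of chow 9, chow 11, HFD 1 and HFD 3 had at least 300 of these UMIs per 10000. Cd81 in those few cells was at 1451, 949, 453 and 1023 CPM. Without them Cd81 stood at 188 and 247 CPM on chow against 41.4 and 39.2 CPM on HFD, and the difference between diets was -2.51 ± 0.30 on the log2 scale. In C1q-high macrophages Jchain and Igha summed to 2636 and 3078 CPM on chow against 137 and 103 CPM on HFD, and without the cells rich in them the Cd81 difference was still -1.95 ± 0.18. C1qa was also present in monocytes, at 153 and 473 CPM on chow against 93.8 and 127 CPM on HFD. Among monocytes without any C1q UMI (28, 6, 102 and 97 cells) Cd81 had 183, 283, 27.0 and 40.6 CPM. The part of RNA shared between droplets in the Cd81 of monocytes was not tested.

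Cd63 and Cd9 did not follow Cd81 through all stages. In C1q-high macrophages Cd63 had 1339 and 1179 CPM on chow against 699 and 646 CPM on HFD (means of 1259 ± 114 and 672 ± 37.6 CPM, SD, n = 2), and fell by 1.05 ± 0.14 on the log2 scale (2.07-fold, adjusted p = 0.00163, edgeR). Cd9 had 1018 and 715 CPM on chow against 622 and 517 CPM on HFD there, a difference of -0.75 ± 0.19 that was not called at an FDR of 1% (adjusted p = 0.0275). Cd9 passed that threshold with DESeq2 (adjusted p = 0.00603), with the likelihood-ratio test (0.00612) and without chow replicate 11, the lower of the chow mice (-0.99, adjusted p = 0.000553). It was -0.47 without chow replicate 9 (adjusted p = 0.0546), -0.92 without HFD replicate 1 (0.0795), -0.60 without HFD replicate 3 (0.222) and -0.37 in clusters (0.564). Of 4 listed platelet markers only Ppbp was among the genes measured. It had 22.2 and 13.4 CPM on chow against 0 and 0.713 CPM on HFD in C1q-high macrophages. The part of platelet RNA in the Cd63 and Cd9 differences was not tested. The order of the diets for Cd63 and Cd9 was the opposite in Ly6c2- MHC II-high C1q-low cells. Cd63 had 144 and 42.1 CPM on chow, from 11 and 3 UMIs, and 256 and 180 CPM on HFD, from 92 and 95 UMIs, a difference of 1.13 ± 0.45 (95% interval 0.21 to 2.04, adjusted p = 0.194). It was 2.27 without chow replicate 9 (adjusted p = 0.0128) and 0.53 without chow replicate 11 (adjusted p = 0.576). Cd9 had 223 and 211 CPM on chow against 381 and 452 CPM on HFD, a difference of 0.88 ± 0.31 (95% interval 0.25 to 1.51, adjusted p = 0.120). The summed levels of both genes thus lay higher in both HFD mice at this stage without passing the test across all genes. The share of cells with a Cd63 UMI overlapped, at 25.9% and 6.45% on chow and 16.8% and 16.1% on HFD, and did so too after thinning to 1500 UMIs, so that the HFD sums came from a minority of cells. That of Cd9 was 25.9% and 29.0% on chow and 40.6% and 34.4% on HFD and overlapped once thinned.

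In monocytes neither gene was called. Cd63 differed by -0.76 ± 0.44 on the log2 scale (43.0 and 57.4 against 26.5 and 37.6 CPM, adjusted p = 0.508) and Cd9 by -0.90 ± 0.35 (81.3 and 129 against 66.3 and 55.3 CPM, adjusted p = 0.282), and the HFD mice lay below the chow mice in both. The 95% intervals were -1.70 to 0.17 for Cd63 and -1.64 to -0.15 for Cd9. The differences ran from -1.03 to -0.53 for Cd63 and from -1.2 to -0.52 for Cd9 without 1 mouse.

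Among the leukocyte-restricted members, Cd37 fell in C1q-high macrophages while Cd53 was not called at any stage. Cd37 had 55.7 and 55.1 CPM on chow against 31.8 and 17.1 CPM on HFD there, and fell by 1.37 ± 0.27 on the log2 scale (2.58-fold, adjusted p = 0.00999, close to the 1% limit). Cd37 is also a gene of B cells, and the 2 of 4 listed B cell markers in the table, Cd79a and Cd79b, summed to 50.8 and 55.5 CPM on chow against 28.5 and 22.8 CPM on HFD in these macrophages, with Cd79a at 0 in both HFD mice. The part of B cell RNA in the Cd37 difference was not tested. The Cd37 values in monocytes were 105 and 95.6 CPM on chow against 75.8 and 43.1 CPM on HFD (-0.85 ± 0.37, adjusted p = 0.347), where the B cell markers were also lower in both HFD mice (at most 25.4 CPM) than in the chow mice (47.8 and 62.2 CPM). The Cd37 difference in monocytes ran from -1.33 to -0.52 without 1 mouse. At the Ly6c2- MHC II-high C1q-low stage Cd37 was too rare to compare, with 2 and 0 UMIs on chow and 8 and 12 on HFD. Cd53 had 709 and 638 CPM on chow against 599 and 600 CPM on HFD in C1q-high macrophages (-0.31 ± 0.13, 95% interval -0.61 to -0.02, adjusted p = 0.114), and 1291 and 1224 against 913 and 1102 CPM in monocytes (-0.43 ± 0.18, 95% interval -0.82 to -0.04, adjusted p = 0.329). The diets overlapped for Cd53 in Ly6c2- MHC II-high C1q-low cells, with 932 and 801 CPM on chow against 678 and 810 CPM on HFD.

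Cd82 fell in C1q-high macrophages, from 107 and 99.4 CPM on chow to 64.6 and 54.9 CPM on HFD, by 0.94 ± 0.16 on the log2 scale (1.91-fold, adjusted p = 0.00549, edgeR). In monocytes it had 47.8 and 52.6 CPM on chow against 19.9 and 37.6 CPM on HFD (-0.93 ± 0.47, adjusted p = 0.430), and in Ly6c2- MHC II-high C1q-low cells 39.4 and 70.2 against 88.9 and 79.7 CPM (0.56 ± 0.59, adjusted p = 0.720). Cd82 therefore also lay higher in both HFD mice at the C1q-low MHC II-high stage, on few UMIs. The difference there was 0.18 without chow replicate 9 and 1.04 without chow replicate 11. That of monocytes ran from -1.44 to -0.53 without 1 mouse.

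Counted over the family, 3 of the 5 members other than Cd81 were called lower on HFD in C1q-high macrophages (Cd63, Cd37 and Cd82), where 10.5% of the 5065 genes tested were called (1823 at an unadjusted p under 0.05). The median of the 5 differences was -0.94, against -0.02 over all genes. In monocytes 0 of 5 were called by edgeR's quasi-likelihood test, by its likelihood-ratio test or by DESeq2, with 3 at an unadjusted p under 0.05 and 0.743% of all 4573 genes called (584 at an unadjusted p under 0.05). All 5 differences were negative, with a median of -0.85 (all genes -0.01). In Ly6c2- MHC II-high C1q-low cells 0 of 5 were called by any of these tests (DESeq2 gave Cd37 and Cd82 no adjusted p), with 2 at an unadjusted p under 0.05 and 1.59% of all 4524 genes called (695 at an unadjusted p under 0.05). Of the 5 differences 4 were positive, and the median of 0.66 (all genes 0.06) is that of Cd37, from 2 and 0 UMIs on chow. With all cells of a mouse summed, Cd63, Cd9 and Cd82 were called lower (16.2% of 4948 genes), a sum that also carries the difference in stage shares. Without HFD replicate 1 or 3 the calls of Cd9 (adjusted p = 0.0163 and 0.023) and Cd82 (0.0255 and 0.0201) over all cells were lost. Each of the 3 calls in C1q-high macrophages rested on 2 HFD mice and was lost when either was left out. Without HFD replicate 1 the adjusted p was 0.0193 for Cd63, 0.0108 for Cd37 and 0.0281 for Cd82, and without HFD replicate 3 it was 0.0455, 0.0754 and 0.0839, with differences of -0.98, -0.93 and -0.80. The number of all genes called went from 531 to 113 and 32.

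**Figure D2:**
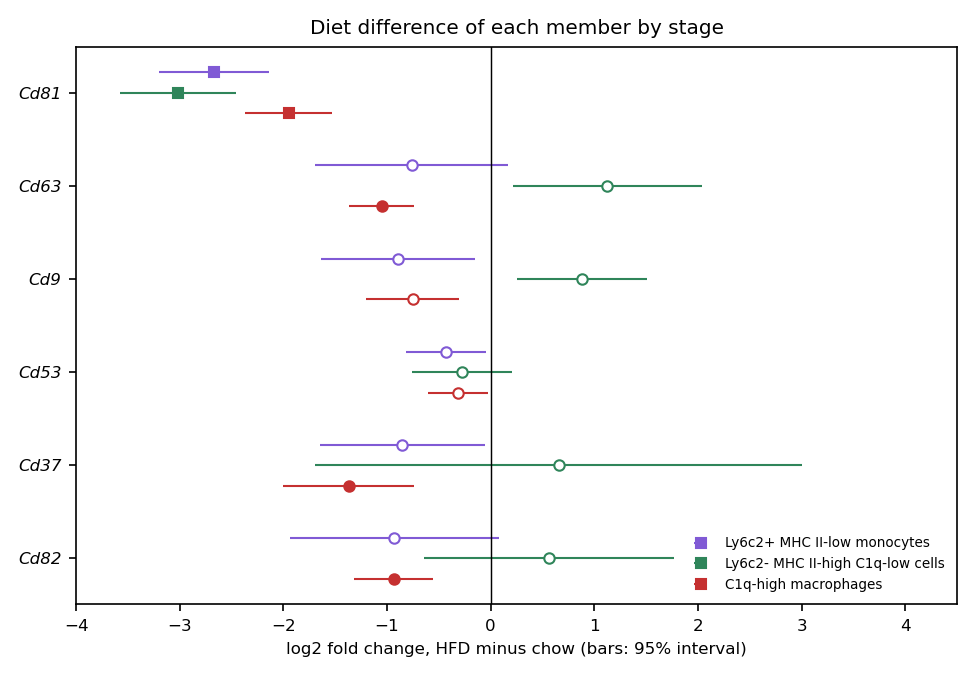
Difference between diets (HFD minus chow, log2, x axis) of each member (y axis) in monocytes, Ly6c2- MHC II-high C1q-low cells and C1q-high macrophages, with 95% intervals. Squares are Cd81, which was not tested, filled circles passed an FDR of 1% and open circles did not. Cd81 lies between -3.01 and -1.95 at every stage drawn, and Cd63, Cd37 and Cd82 carry filled circles in C1q-high macrophages. Cd63 and Cd9 lie to the right of 0 in the Ly6c2- MHC II-high C1q-low cells.

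Whether the diet difference itself varied with stage was then tested as a diet-by-stage term that also fitted every mouse. Between monocytes and C1q-high macrophages it did not pass for any of the 5 tested members (adjusted p = 0.535 to 0.974 in edgeR, 0 at an unadjusted p under 0.05 and 0 by the likelihood-ratio test, 1.02% of all genes called). The Cd81 difference in monocytes minus that in C1q-high macrophages was -0.68 ± 0.26 on the log2 scale, -0.35 without HFD replicate 1, -0.99 without HFD replicate 3 and -1.01 without doublets. Between Ly6c2- MHC II-high C1q-low cells and C1q-high macrophages, a comparison added after the values had been seen, the difference between diets moved by 2.24 ± 0.36 for Cd63 (adjusted p = 2.5e-07) and by 1.70 ± 0.30 for Cd9 (adjusted p = 2.0e-06), with 1.47% of all genes called. This fit used a spread common to all genes. Cd82 (1.57 ± 0.58, adjusted p = 0.164), Cd37 (2.15 ± 1.09, adjusted p = 0.430) and Cd53 (0.09 ± 0.23, adjusted p = 0.951) were not called. Leaving out 1 mouse gave 1.2 to 9.84 for Cd37 and 1.15 to 2.08 for Cd82. Cd81 moved the other way, by -0.97 ± 0.24 (-0.59 without HFD replicate 1 and -1.48 without HFD replicate 3). Without chow replicate 9 or 11 the interaction was 3.30 and 1.71 for Cd63 (adjusted p = 8.38e-07 and 0.000723) and 1.48 and 1.90 for Cd9 (adjusted p = 0.00155 and 6.72e-07). Without HFD replicate 1 or 3 it was 2.07 and 2.41 for Cd63 and 1.96 and 1.39 for Cd9, and neither passed the threshold (adjusted p = 0.17 and 0.156 for Cd63, 0.0491 and 0.453 for Cd9).

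Because macrophages of the HFD mice carried less C1q, the members were compared in bins of C1q level (log2 of UMIs per 10000, plus 1). At C1q from 5 to 6 Cd81 had 1351 and 1811 CPM on chow against 262 and 215 CPM on HFD, and from 6 to 7 it had 1667 and 2262 CPM against 368 and 352 CPM. From 7 to 8, where most chow macrophages lay, it had 3281 and 3718 CPM against 1404 and 1073 CPM, and in the highest bin, from 8 to 10, 3868 and 4064 CPM against 3311 and 2594 CPM. The diets did not overlap in any of these 4 bins, and the gap narrowed toward the highest C1q. Cd63 overlapped between diets from 5 to 6 (516 and 236 against 658 and 379 CPM), and stood at 1408 and 1204 against 778 and 827 CPM from 7 to 8. Cd9 also overlapped from 5 to 6 (486 and 368 against 537 and 399 CPM) and had 1094 and 772 against 708 and 600 CPM from 7 to 8. In the highest bin Cd63 again stood apart (1596 and 1462 against 1134 and 1253 CPM) while Cd9 overlapped (1010 and 598 against 785 and 666 CPM). Cd37 was lower in both HFD mice in each of these bins too, on few UMIs. It had 121 and 56.6 against 20.2 and 19.9 CPM from 5 to 6, 55.9 and 56.7 against 26.5 and 8.36 CPM from 6 to 7, 53.9 and 52.6 against 43.7 and 19.6 CPM from 7 to 8 and 57.7 and 68.7 against 23.9 and 22.1 CPM in the highest bin, where it rests on 5 UMIs in each HFD mouse. Cd82 was lower in both HFD mice in all but the highest bin, where the diets overlapped (113 and 103 against 148 and 92.6 CPM). Cd53 lay higher in both HFD mice from 5 to 6 (592 and 604 against 743 and 656 CPM), overlapped from 6 to 7 and lay lower from 7 upward. Of the 6 members Cd81 and Cd37 were thus lower on HFD without overlap in all 4 bins.

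**Figure D3:**
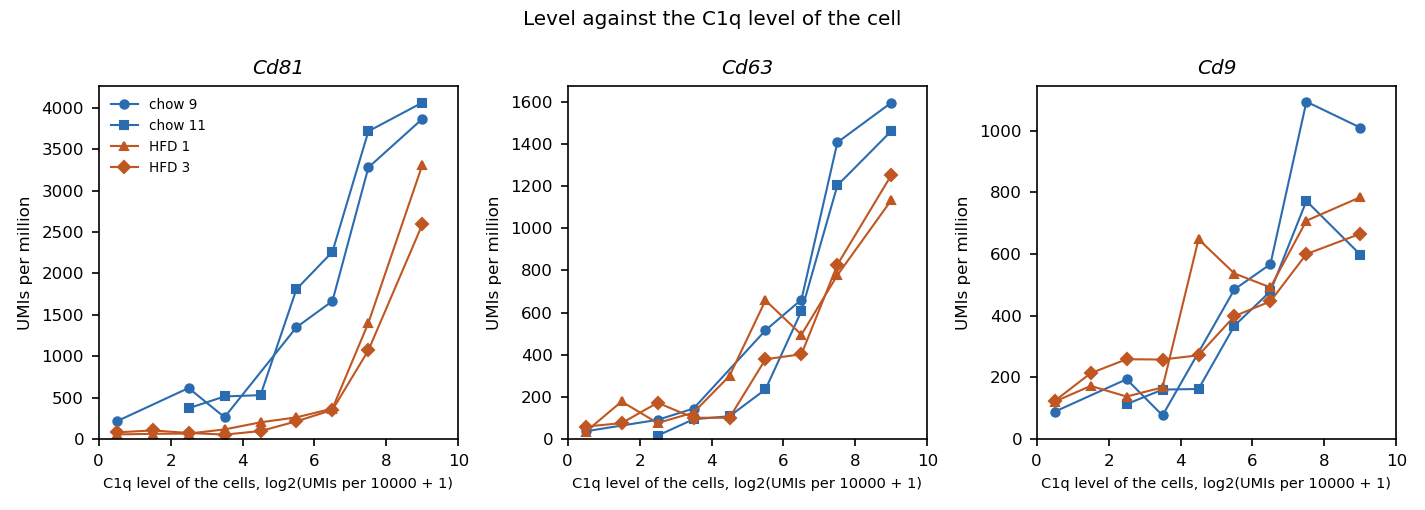
CPM of Cd81, Cd63 and Cd9 (y axis) against the C1q level of the cells, in bins of log2 of UMIs per 10000 plus 1 (x axis, bin centres), 1 line per mouse, for bins of at least 20 cells. The Cd81 lines of the HFD mice stay below those of the chow mice from 262 and 215 CPM at C1q 5 to 6 up to 3311 and 2594 CPM in the highest bin, while the Cd63 and Cd9 lines overlap at C1q 5 to 6.

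Restricting the macrophage comparison to cells with C1q from 7 to 8 (546, 1331, 184 and 250 cells), an alternative added after the values had been seen, gave -1.60 for Cd81, -0.81 for Cd63 (adjusted p = 0.00381), -1.04 for Cd82 (adjusted p = 0.00503), -0.93 for Cd37 (adjusted p = 0.0706) and -0.62 for Cd9 (adjusted p = 0.0457). Cd53 differed there by -0.38 (adjusted p = 0.131). Leaving out C1q-high cells with a Ly6c2 UMI gave -1.70 for Cd81, -0.81 for Cd63 (adjusted p = 0.00375), -1.36 for Cd37 (adjusted p = 0.0087) and -0.89 for Cd82 (adjusted p = 0.00835). Replacing the gate by the pair of clusters highest in C1qa, built from all genes and so partly from the members, left 751, 1815, 172 and 132 cells. There Cd81 differed by -0.52 ± 0.15, and none of Cd63 (-0.44), Cd9 (-0.37), Cd37 (-0.28) and Cd82 (-0.25) was called (adjusted p = 0.279 to 0.764, 16 genes called in all). The size of the diet difference in macrophages, and every call of a member in them, therefore depended on how the macrophages were delimited.

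The ratio between diets changed unequally across the members when the stages were weighted equally. Over all cells Cd81 had 2865 and 3451 CPM on chow against 578 and 450 CPM on HFD, 6.14-fold between the means. With the 4 stages weighted equally it had 1119 and 1314 CPM against 339 and 269 CPM, 4.0-fold. Cd63 went from 3.0-fold (1206 and 1120 against 394 and 381 CPM) to 1.32-fold (382 and 332 against 291 and 251 CPM). Cd9 went from 2.12-fold over all cells (922 and 686 against 388 and 372 CPM) to 1.06-fold with equal weights, where the diets overlapped (369 and 322 against 327 and 323 CPM). With equal weights a difference between diets thus remained in Cd81 and was smaller in Cd63 and Cd9. Equal weights also average stages in which Cd63 and Cd9 lay higher on HFD with macrophages in which they lay lower. The part of stage shares alone in these ratios was not tested. The ratios were 1.52-fold for Cd63 and 1.14-fold for Cd9 without the Ly6c2+ MHC II-high cells, of which chow replicate 9 held 3. Cd37 had 85.4 and 70.9 CPM on chow against 43.4 and 29.3 CPM on HFD with equal weights, where chow replicate 9 includes 154 CPM from 2 UMIs in 3 cells. Without that stage Cd37 had 62.4 and 50.2 against 43.3 and 27.7 CPM, and the ratio went from 2.15-fold to 1.59-fold. Cd82 overlapped (48.4 and 68.0 against 54.8 and 63.2 CPM), and its difference changed sign, from 0.02 to -0.27, once the stage with 3 cells in chow replicate 9 was left out. Cd53 had 757 and 663 CPM on chow against 739 and 737 CPM on HFD over all cells, and 907 and 906 against 770 and 803 CPM with equal weights. No test was made of these weighted levels.

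**Figure D4:**
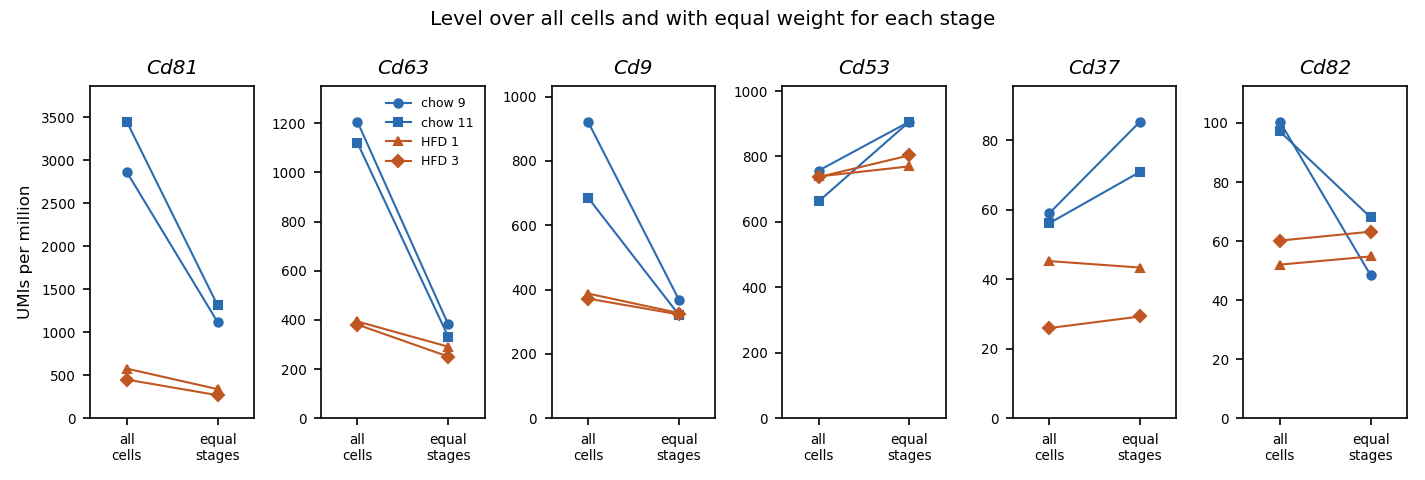
CPM of each member per mouse (points), over all cells of the mouse and as the mean of the 4 stages with equal weights. For Cd81 the mice stay apart after weighting (1119 and 1314 CPM on chow, 339 and 269 CPM on HFD), whereas for Cd9 they come together (369 and 322 against 327 and 323 CPM).

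Cell by cell, fewer macrophages of the HFD mice had a Cd81 UMI. A Cd81 UMI was found in 95.9% and 97.2% of C1q-high macrophages on chow and in 61.8% and 56.0% on HFD, and after every cell was thinned to 1500 UMIs, leaving out 42, 169, 59 and 62 shallower cells, in 92.5%, 96.5%, 51.6% and 42.6%. Median depths of these macrophages were 4215, 3871, 3781.5 and 4130 UMIs. In monocytes the thinned shares were 31.1% and 28.6% on chow and 6.05% and 4.09% on HFD. Median depths there were 3063, 3091, 4004 and 2925 UMIs. Monocytes were the stage with the lowest Cd81 in each mouse, apart from the 3 Ly6c2+ MHC II-high cells of chow replicate 9, which had none. No cell type that should lack Cd81 was part of the sort, so the share that free RNA gives was not tested. For Cd63 the thinned shares of C1q-high macrophages were 73.3% and 71.3% on chow and 44.4% and 38.6% on HFD.

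Splitting C1q-high macrophages by whether Cd81 was counted among 1500 UMIs showed what went with it. Cells with Cd81 (668, 1622, 206 and 252) had C1qa at 6834 and 7529 CPM on chow against 6988 and 6346 CPM on HFD, and cells without it (54, 58, 193 and 339) had 4871 and 5057 CPM on chow against 3834 and 3635 CPM on HFD. Cd63 stood at 1384 and 1191 CPM on chow against 755 and 732 CPM on HFD in the cells with Cd81, and at 837, 921, 643 and 591 CPM in those without. Among macrophages with Cd81, C1qa of the diets overlapped while Cd63 did not. Ly6c2 did not overlap in them either, at 4.80 and 26.5 CPM on chow against 55.1 and 142 CPM on HFD. In the cells without Cd81 it overlapped (304 and 251 against 180 and 377 CPM). Cd9 had 1052 and 736 against 610 and 579 CPM in the cells with Cd81 and 681 and 342 against 656 and 476 CPM in those without. This split uses Cd81 itself and is a description without a test.

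Smaller groups within the stages were described by marker genes. Macrophages with a Cd4 UMI and no Lyve1 or Cd163 UMI (198, 386, 25 and 27 cells), a mark of long-lived gut macrophages, had Cd81 at 3472 and 4029 CPM on chow against 2256 and 1690 CPM on HFD, where macrophages without Cd4, Lyve1 or Cd163 had 1045 and 773 CPM. Their Cd63 was 1550 and 1412 CPM on chow against 1311 and 1169 CPM on HFD. Macrophages with a Lyve1 or Cd163 UMI (41, 176, 7 and 6 cells) had Cd81 at 2581 and 3404 CPM on chow against 1402 and 987 CPM on HFD, the latter from very few cells. Across both C1q-low MHC II-high stages, Ly6c2+ and Ly6c2-, cells with an AA467197 UMI (1, 1, 57 and 136 cells) were almost absent on chow and had Cd63 at 513 and 332 CPM and Cd9 at 506 and 616 CPM on HFD. Those with a UMI of Cd209a, a gene also used to mark monocyte-derived dendritic cells (8, 6, 48 and 67 cells), had Cd63 at 17.6 and 48.3 CPM and Cd9 at 198 and 331 CPM on HFD, and no Cd63 UMI on chow. Dendritic cell markers (5 of 5 in the table) summed to 669 and 421 CPM on chow against 681 and 622 CPM on HFD in Ly6c2- MHC II-high C1q-low cells, with Itgae at 0 in each mouse and Zbtb46 and Xcr1 at 0 on chow. Over both stages the Cd63 of C1q-low MHC II-high cells on HFD was uneven between the AA467197 and Cd209a groups.

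Promoters are shown for 3 members with different patterns, Cd81 (lower on HFD at each stage tested), Cd63 (steepest rise with maturation) and Cd53 (falling with maturation). The lines give 250 bases before to 50 after the start in RefSeq GRCm38.p6, 5′ to 3′ on the gene's strand, with the letters of the searched motifs in capitals.
Cd81, chr7:143052500-143052799 (plus strand): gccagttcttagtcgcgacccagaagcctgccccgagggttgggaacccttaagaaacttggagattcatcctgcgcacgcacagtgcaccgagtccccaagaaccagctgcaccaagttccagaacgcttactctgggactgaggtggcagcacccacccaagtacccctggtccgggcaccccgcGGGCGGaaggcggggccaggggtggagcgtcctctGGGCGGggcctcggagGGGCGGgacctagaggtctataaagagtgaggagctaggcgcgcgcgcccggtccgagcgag
Cd63, chr10:128909095-128909394 (plus strand): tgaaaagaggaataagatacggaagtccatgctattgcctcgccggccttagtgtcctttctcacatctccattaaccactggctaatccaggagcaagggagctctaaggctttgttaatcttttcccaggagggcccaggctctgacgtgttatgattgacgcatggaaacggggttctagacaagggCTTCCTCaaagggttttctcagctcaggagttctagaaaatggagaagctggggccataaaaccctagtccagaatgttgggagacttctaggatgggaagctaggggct
Cd53, chr3:106790100-106790399 (minus strand): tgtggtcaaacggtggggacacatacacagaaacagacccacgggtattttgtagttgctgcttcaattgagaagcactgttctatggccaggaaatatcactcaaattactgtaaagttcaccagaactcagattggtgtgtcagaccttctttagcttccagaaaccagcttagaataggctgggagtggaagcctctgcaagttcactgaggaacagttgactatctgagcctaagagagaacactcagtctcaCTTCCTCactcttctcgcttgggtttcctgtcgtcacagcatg
A set of 5 motifs was searched on both strands, an E-box (CACGTG), AP-1 (TGANTCA), STAT (TTCNNNGAA), PU.1 (GAGGAAG) and GC box (GGGCGG). Cd81 held the GC box letters 3 times, at bases 188 to 193, 223 to 228 and 239 to 244 of the window, and none of the other letters. Cd63 and Cd53 held only the PU.1 letters, on the opposite strand at bases 191 to 197 and 258 to 264. Of 32851 mouse promoters of this length 35.7% hold the GC box letters and 13.6% the PU.1 letters, against 7.15% for the E-box, 7.81% for AP-1 and 8.3% for STAT. These matches describe letters in a window and were not tied to the levels.

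The rest of the family was sparse in these cells. Of 26 other listed tetraspanins 15 were in the table, and the 5 with the highest level over all cells were Tspan13, Tspan32, Tspan14, Cd151 and Tspan3. Tspan13 was the exception in level, and it was the only gene of this list called between diets. In Ly6c2- MHC II-high C1q-low cells it had 197 and 211 CPM on chow against 831 and 727 CPM on HFD, and rose by 1.87 ± 0.29 on the log2 scale (3.66-fold, adjusted p = 1.4e-04, edgeR), 1 of the 2 genes of this list tested there, where 1.59% of all genes were called. In C1q-high macrophages it had 467 and 392 CPM on chow against 445 and 564 CPM on HFD, with overlap (0.09 ± 0.16, adjusted p = 0.733). There 0 of 6 tested were called by edgeR's quasi-likelihood test, with 5 at an unadjusted p under 0.05. Tspan4 and Tspan3 passed the filter of a UMI in 5% of cells through the chow mice, as 2.62% to 4.44% of HFD macrophages had a UMI of either, so their direction is no support. Of all 5065 genes 1823 had such a p and 10.5% were called. Among the 5 were Tspan4 (-1.47 ± 0.37, adjusted p = 0.024) and Tspan3 (-1.42 ± 0.39, adjusted p = 0.0329). Tspan32 had 37.1 and 67.4 CPM on chow against 31.2 and 25.3 CPM on HFD in these macrophages (adjusted p = 0.0359). In monocytes it had 3, 4, 10 and 19 UMIs, in 3.03% to 5.35% of cells, and was not tested between diets. It thus entered the fit of maturation through the later stages, and its rise there (1.29 ± 0.35) is not counted. Cd151, a partner of laminin-binding integrins, had 21.6 and 25.4 against 11.8 and 17.5 CPM (adjusted p = 0.0613), and Tspan14, a partner of the protease Adam10, 35.0 and 32.4 against 24.2 and 28.2 CPM (adjusted p = 0.115). In monocytes 0 of 3 were called, with Tspan13 at 0.71 ± 0.22 (adjusted p = 0.164) alone at an unadjusted p under 0.05 (0.743% of all genes called, 584 of 4573 at such a p).

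Genes of known tetraspanin partners and of vesicle formation did not share 1 direction. Of 26 listed, 18 were tested in C1q-high macrophages and 4 were called, 3 higher and 1 lower, with a median of -0.08 (all genes 10.5% called, median -0.02). Clec7a, the partner of Cd37, rose from 627 and 500 CPM on chow to 1440 and 1520 CPM on HFD (1.25 ± 0.15, adjusted p = 0.00109), so that the receptor gene was higher where Cd37 was lower. The integrin gene Itgb2 rose from 151 and 146 to 293 and 307 CPM (0.87 ± 0.13, adjusted p = 0.00273) and Chmp4b, a part of the machinery that pinches off vesicles, from 38.2 and 32.9 to 88.8 and 79.9 CPM (1.11 ± 0.17, adjusted p = 0.00356). Cd36, a scavenger receptor found in complexes with Cd9 and Cd81, fell from 118 and 88.0 to 41.5 and 43.5 CPM (a difference of -1.42 ± 0.19 on the log2 scale, adjusted p = 0.00215). In monocytes Cd36 had 2, 2, 2 and 6 UMIs, so that it entered the fit of maturation through macrophages and its rise there is not counted. Igsf8, the direct partner of Cd9 and Cd81, rose with maturation by 1.30 ± 0.27, while Itga4, Cd44 and Cd47 fell. Including Cd36, 5 of 18 tested were called there, against 19.3% of all genes. Between diets Igsf8 was not called at any stage tested. It had 57.4 and 86.1 CPM on chow against 33.15 and 35.4 CPM on HFD in monocytes (-1.17 ± 0.40, adjusted p = 0.202, edgeR). In Ly6c2- MHC II-high C1q-low cells it had 210 and 211 against 58.4 and 75.9 CPM (-1.68 ± 0.41, adjusted p = 0.0179). In C1q-high macrophages the diets overlapped (-0.06 ± 0.16, adjusted p = 0.810). In monocytes 0 of 17 and in Ly6c2- MHC II-high C1q-low cells 0 of 16 were called by edgeR's quasi-likelihood test, with 2 and 5 at an unadjusted p under 0.05. Of all genes 0.743% and 1.59% were called in these stages, and 584 of 4573 and 695 of 4524 had such a p.

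Across the 16 sums of 4 mice and 4 stages, which share mice and depth, the members did not form 1 pattern. Cd63 and Cd82 (r = 0.84), Cd81 and Cd63 (0.82), Cd81 and Cd82 (0.80) and Cd63 and Cd9 (0.74) ran alongside each other on the log2(CPM + 1) scale, while Cd81 and Cd9 did so less (0.55) and Cd9 and Cd53 ran in opposite directions (-0.77). Several of these values changed without the sum of 3 cells, in which Cd81, Cd63 and Cd82 had no UMI. Without it r was 0.68 for Cd63 and Cd82, 0.63 for Cd81 and Cd63, 0.49 for Cd81 and Cd82, 0.92 for Cd63 and Cd9, 0.66 for Cd81 and Cd9 and -0.82 for Cd9 and Cd53. Cd37 had no positive r above 0.29 with any member over 16 sums and above 0.37 over 15. Among 4978 genes the 3 closest to Cd81 were Mmp13 (0.95), Gdf15 (0.95) and Cx3cr1 (0.95). Those closest to Cd63 were Tent5c (0.94), Vcam1 (0.92) and Basp1 (0.91), and the closest to Cd9 were Cxcl16 (0.93), Clec4n (0.91) and Rgs1 (0.89). The closest to Cd53 were Nadk, Emp3 and Ahnak (0.87 each) and those to Cd37 Sqor (0.93), Vcpip1 (0.91) and Nmral1 (0.90). For Cd82 they were Slc29a3 (0.97), Cltc (0.96) and Pik3ap1 (0.95), which dropped to 0.75, 0.62 and 0.63 without the sum of 3 cells. Cx3cr1, the fractalkine receptor of gut macrophages, had 485 and 521 CPM in the C1q-high macrophages of the chow mice and 197 and 146 CPM in those of the HFD mice.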

How the data were processed

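Single cells of 4 mice were captured with 10x Genomics 3′ v2 chemistry, 1 well per mouse. The authors deposited raw UMI counts per gene and cell without normalization, made with kallisto 0.46.0 and bustools 0.39.2 per the labels (build mm10), after filtering cells and genes and removing cells not annotated as macrophages or monocytes. Cells were assigned to mice by the suffix of their names, and 11819 of 11820 genes were matched to GENCODE M21. Members, lists, stages and tests were chosen with earlier results of these data known, so the lists are not independent evidence. The alternatives using C1q from 7 to 8, cells without Ly6c2 UMIs, cells rich in Jchain and Igha, the second stage interaction the weighting without a stage and the stage steps within each diet or without the sum of 3 cells were added after seeing the values.

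Per cell, C1q was high above 23.55 UMIs per 10000 (Otsu threshold, scikit-image 0.26.0), MHC II was high above 104.75 among C1q-low cells, and Ly6c2+ meant at least 1 UMI. Of all cells 174 lay within 0.5 log2 units of the C1q threshold, and of the C1q-low cells 163 lay that close to the MHC II threshold. Counts were summed per mouse and stage and tested with edgeR 4.0.16 (TMM, quasi-likelihood test, CPM above 1 in at least 2 of 4 sums, or 4 of 16, and a UMI in at least 5% of cells, Benjamini-Hochberg adjustment over all genes, FDR 1%). Stages with under 20 cells in a mouse were not tested between diets, while the stage fit used all 16 sums, 1 of them of 3 cells. DESeq2 1.42.0, the likelihood-ratio test, other filters, gates, clusters (scran 1.30.0) and leaving out each mouse were alternatives. Scrublet in scanpy 1.11.5 marked 38 cells (0.701%) as doublets, which were kept and removed in an alternative. The edgeR step was tested on simulated data. Named genes were the 6 members, listed tetraspanins called between diets or among the 5 most abundant, listed partners called, and the 3 genes closest to each member. Tspan4, neither called nor among those 5, was named as well. The smallest exact p of 2 against 2 mice is 0.33, and intervals of single sums are 95% Poisson intervals that cover counting error only. Mice were separate animals. The p-values rest on 2 mice per diet and on spread that edgeR borrows across genes, wholly so in the second stage interaction.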

Additional observations from a re-analysis of the deposited data

Results flagged for a closer look

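Cd63, Cd9 and Cd82 lay on opposite sides between diets at different stages, every HFD mouse lying on 1 side of every chow mouse within a stage. For Cd63 the difference was 1.13 on the log2 scale in Ly6c2- MHC II-high C1q-low cells and -1.05 in C1q-high macrophages, and the test of that change passed in edgeR (2.24 ± 0.36, adjusted p = 2.5e-07) and missed the threshold without either HFD mouse (adjusted p = 0.17 and 0.156). For Cd9 the values were 0.88 and -0.75 (1.70 ± 0.30, adjusted p = 2.0e-06, and 0.0491 and 0.453 without HFD replicate 1 or 3), and for Cd82 0.56 and -0.94 (1.57 ± 0.58, adjusted p = 0.164). The 0.56 of Cd82 was 0.18 without chow replicate 9 and 1.04 without chow replicate 11. Monocytes also lay opposite to the Ly6c2- MHC II-high C1q-low cells, at -0.76 against 1.13 for Cd63, -0.90 against 0.88 for Cd9 and -0.93 against 0.56 for Cd82, and these differences between stages were not tested. The 27 and 31 cells of the chow mice in the C1q-low MHC II-high stage carried 11 and 3 UMIs of Cd63, and the interaction fit estimated a common spread over all genes, with no spread of its own for any gene.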

How the results depend on the processing

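No paired analysis was possible because the chow and HFD mice share no replicate number. Of 534 alternative values of the members 469 stayed the same, 30 lost and 4 gained a call, 15 moved and 16 reversed. For tested values, the same meant that direction and side of the threshold were kept. Cd81 has no test between diets, so its differences counted as the same when direction was kept within the spread of the main value. That spread was the SD between mice, or the SE for the diet-by-stage terms. The cause of these changes was not tested unless stated. Thinning cells to 1500 UMIs lowered the mean share of macrophages with a UMI for each member and diet, for Cd81 from 96.6% to 94.5% on chow and from 58.9% to 47.1% on HFD. Counts of calls moved as follows. In monocytes 34 genes were called, against 101 with the likelihood-ratio test, 119 without a filter, 9 with sums thinned to 1 total, 16 with at least 2 Ly6c2 UMIs, 52 and 18 with gates raised or lowered by 1, and 12 to 120 without 1 mouse. In Ly6c2- MHC II-high C1q-low cells 72 were called, against 47 (DESeq2), 132 (likelihood-ratio test), 138 (no filter), 0 (thinned; by construction few UMIs remain), 39 (2 Ly6c2 UMIs) and 36 to 130 (without 1 mouse). In C1q-high macrophages 531 became 926, 912, 16 in clusters and 321 at C1q from 7 to 8 (fewer cells), and 32 to 764 without 1 mouse. Over all cells 803 became 1306 (likelihood-ratio test), 1218 (no filter) and 150 to 920, between stages 963 became 611 in chow mice alone and 627 to 853, and for the diet-by-stage term of monocytes 51 became 178, 167 and 10 to 42. For the added term of Ly6c2- MHC II-high C1q-low cells 73 became 0 to 70 without 1 mouse. In monocytes the Cd81 difference of -2.67 ranged over -2.5 (no filter), -2.44 (thinned), -2.79 (2 Ly6c2 UMIs), -3.0 and -2.55 (gates), -2.99 (without doublets) and -2.51 (without Jchain and Igha cells), and in macrophages -1.95 became -0.52 in clusters. Cd37 in Ly6c2- MHC II-high C1q-low cells, with 0 UMIs in chow replicate 11, reversed from 0.66 to -0.06 (thinned), -0.75 (2 Ly6c2 UMIs) and -0.44 (gates raised) and ran from -0.26 to 5.87 without 1 mouse. Diet-by-stage terms of monocytes against macrophages that lay close to 0 reversed for Cd53, at 0.03 without a filter and -0.26 to 0.09 without 1 mouse. They also reversed without 1 mouse for Cd63 (-0.04 to 0.66), Cd9 (-0.64 to 0.51) and Cd82 (-0.63 to 0.60). The diet-by-stage term of Cd53 between Ly6c2- MHC II-high C1q-low cells and macrophages ran from -0.07 to 0.23. Without the Ly6c2+ MHC II-high cells the equally weighted difference was -0.6 for Cd63 (from -0.40), -0.25 for Cd53 (from -0.20), -0.27 for Cd82 (from 0.02) and -0.67 for Cd37 (from -1.10). For the step from monocytes to Ly6c2+ MHC II-high cells 157 calls became 22 in chow mice alone and 328 in HFD mice alone, and in chow mice Cd63 (-0.41), Cd37 (0.29) and Cd82 (-0.47) reversed. At the loss of Ly6c2 2 calls became 1 without the sum of 3 cells, 5 and 6, and Cd53 reversed in chow mice (0.08), as did Cd82 at the step to C1q-high macrophages in HFD mice (-0.36). A fit of monocytes without C1q UMIs was not run, since chow replicate 11 held 6 such cells.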

Other observations

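The 172 cells without high C1q, high MHC II or a Ly6c2 UMI (44, 35, 35 and 58 in chow 9, chow 11, HFD 1 and HFD 3) carried Plac8 at 5038, 5623, 11504 and 9312 CPM, below the 5978, 7960, 13180 and 11627 CPM of the Ly6c2+ MHC II-low monocytes of the same mice, at median depths of 2278, 1986, 1474 and 1795 UMIs. Their Cd81 stood at 168 and 395 CPM on chow against 56.6 and 125 CPM on HFD, and the mean of their Cd53 was 1199 ± 95.5 CPM for the chow mice and 1168 ± 91.2 CPM for the HFD mice (SD, n = 2).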
